A study of Mus musculus with 14 samples.

Results

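The genes described here are 39 genes of DNA replication and S phase: origin licensing factors, the MCM helicase, its activators, the replicative polymerases, the PCNA clamp and its loader, single-strand binding, lagging strand and nucleotide enzymes, and factors that rebuild chromatin behind the fork. They were chosen by gene symbol. All 39 are rows of the RNA table of 55433 genes, all 39 are gene bodies in the chromatin table of 22470, and all 39 passed the filter of a mean of at least 8 normalized counts that left 18263 genes for testing. The study used mouse tumor-derived cells (C57BL/6, passages 6 to 8) carrying a guide RNA labelled as control (sgControl) or as directed at NSD3 (sgNSD3), a methyltransferase of histone H3 lysine 36. RNA was measured in 3 sgControl and 3 sgNSD3 samples, by what their titles call total RNA-seq. Chromatin was profiled for H3K36me2 in 2 and 2, for H3K27me3 in 1 and 1, and with IgG in 1 and 1, or 14 samples in all. The labels do not state the tumor type, whether a line is 1 clone, where the guide cuts, or whether the samples of a condition were grown separately; the p-values therefore reflect variation among these particular samples, possibly technical only.

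A cell copies its genome once per division. In G1 the origin recognition complex, with CDC6 and CDT1, loads the MCM2-7 ring onto DNA; at the start of S phase CDC45 and GINS join it to make the active helicase. Primase and the polymerases then copy both strands, PCNA holds the polymerases on DNA, and ribonucleotide reductase supplies the deoxynucleotides. Many of these genes are transcribed in a wave before S phase that E2F transcription factors drive, so in cultured tumor cells their RNA is commonly read as a marker of cycling cells.

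Nsd3 itself was read first, as a check of the labels. Its RNA stood at 14568, 14402 and 14675 normalized counts in sgControl replicates 1 to 3 and at 21989, 22012 and 21837 in the libraries labelled sgNSD3. The mean rose 1.51-fold (14548 ± 137 to 21946 ± 94.9, SD, n = 3; limma with Benjamini-Hochberg adjustment, adjusted p = 5.86e-14), so the RNA of the targeted gene was higher, not lower, where the guide against it was labelled. This check did not bear the labels out, but it cannot show them wrong either. Where the guide cuts and what it does to the transcript are not stated. Whether the labels are right was not tested. The directions given here are those of the libraries labelled sgNSD3 against sgControl, and exchanged labels would turn every one of them. The 6 libraries held between 20294828 and 21863833 counts, and transcripts of the ribosomal RNA loci took 10.85, 8.68 and 8.22% of them in sgControl against 9.626, 9.479 and 9.529%. All 6 mesenchymal markers had a mean of at least 8 normalized counts, as had 2 of 6 leukocyte, 2 of 5 endothelial and 3 of 6 epithelial markers; Cd3e of T cells, Emcn of endothelium and Epcam of epithelium were at 0 in all libraries. The mesenchymal sum overlapped (797857 to 803567 normalized counts in the libraries labelled sgNSD3 against 731088 to 823535), with Col1a1 and Pdgfrb called higher and Pdgfra lower. The summed epithelial markers were lower in the libraries labelled sgNSD3 (375.1 to 427.2 against 539.7 to 597.5 normalized counts, with Krt14 and Krt18 called), the endothelial sum was higher (197.4 to 236.8 against 119.8 to 144.5, with Kdr called), and the leukocyte sum overlapped (236.7 to 251.2 against 229.8 to 238.3). Their part in the results below was not tested.

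Of the 39 replication genes, 5 were called lower in the libraries labelled sgNSD3 and 0 were called higher: the helicase subunits Mcm2, Mcm5 and Mcm7, the clamp Pcna and the large ribonucleotide reductase subunit Rrm1. Each fell by between 8.75 and 11.6%. With a library left out the number called lower was 3 without sgControl replicate 1 and 2, Pcna and Rrm1, without sgNSD3 replicate 1 or replicate 2. A call means an adjusted p under 0.05 in limma with Benjamini-Hochberg adjustment over all 18263 tested genes. Over all tested genes 6.44% were called lower and 5.44% higher, and the members called lower are 12.8% of 39. At an unadjusted p under 0.05 in limma, 10 members were lower and 1 was higher, against 13% and 11.7% of all tested genes. The 3 libraries labelled sgNSD3 lay below all 3 sgControl libraries for 13 members (14.4% of all tested genes did) and above them for 2 members, Pola2 and Tk1 (14% of all tested genes). Fitted log2 folds were below 0 for 26 members, where 49.8% of all tested genes were. Their median was -0.039, against 0.001 for all tested genes. Calls also varied with gene length over the whole table. With genes cut into 10 bins by annotated length, 1.5% were called higher in the shortest bin and 17% in the longest. The longest bin held 2 members. Relative to the median of genes in the same bin of length, the members' median was -0.043. Summed over the 39 genes, the normalized counts were 39883, 40510 and 39892 in sgControl and 38042, 37976 and 38545 in the libraries labelled sgNSD3, 4.76% lower with no overlap. This sum is weighted to genes with many counts and includes the 5 called members, Rrm1 alone falling from a mean of 5918 to 5376. A sum without the called members was not taken, and how often sums of other genes differ like this was not tested. In a bulk sample, fewer cells in S phase and less of these RNAs per cell cannot be told apart.

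**Figure D1:**
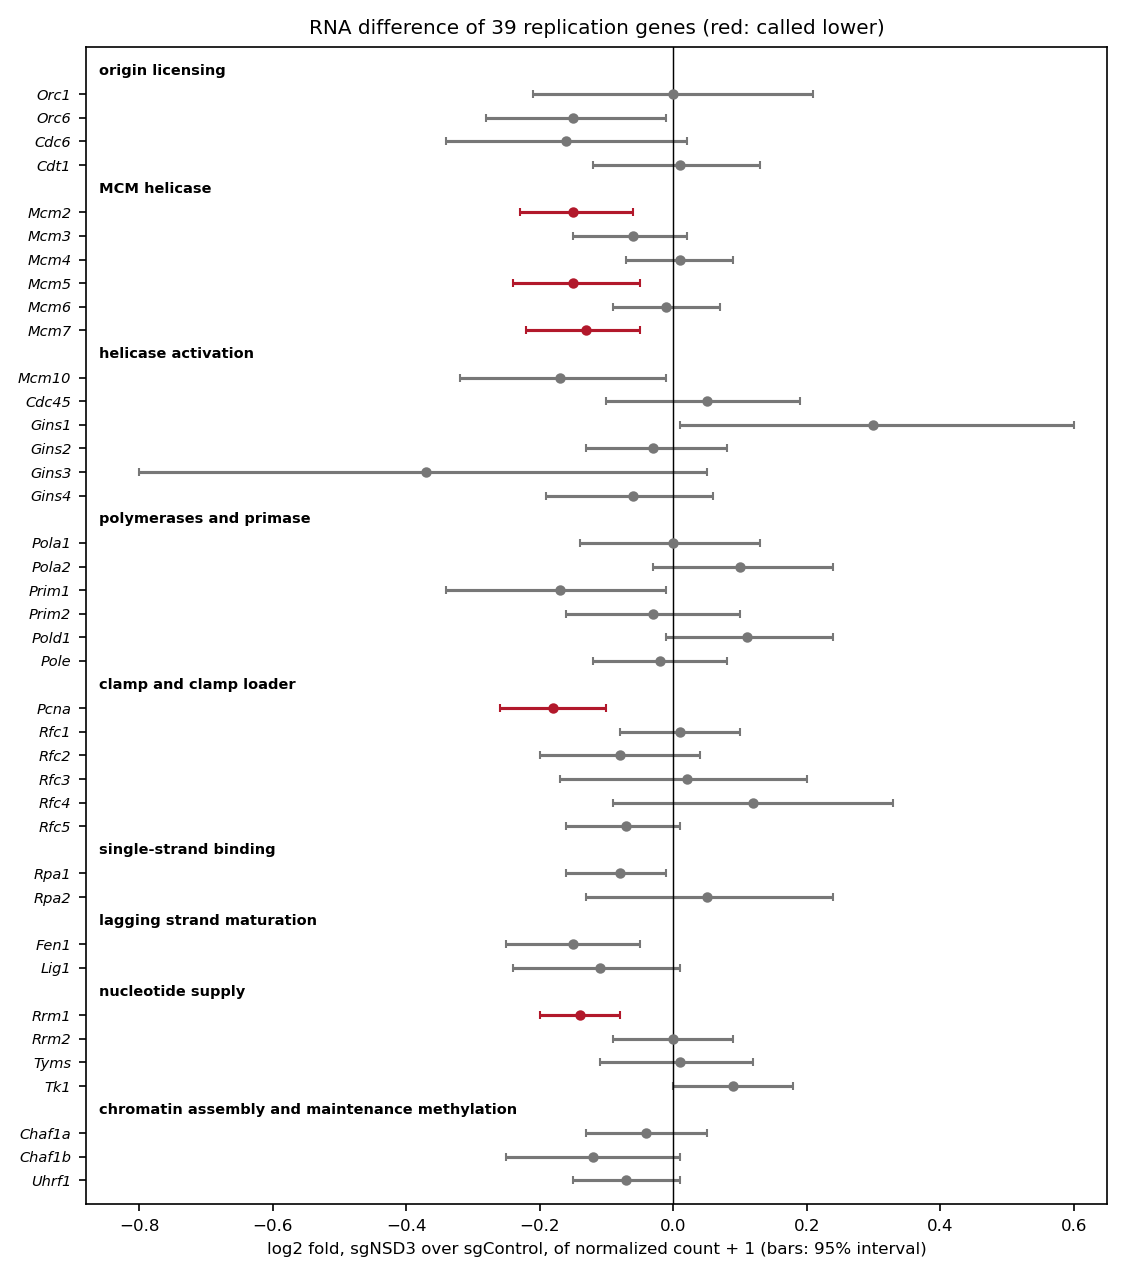
Fitted log2 fold of each of the 39 replication genes (x axis: libraries labelled sgNSD3 over sgControl, on log2 of normalized count + 1; points, estimates from 3 against 3 libraries; bars, 95% intervals), grouped by role. The 5 genes called lower are red and lie between -0.18 and -0.13, and the widest bar belongs to Gins3, the member with the fewest counts.

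The MCM helicase is a ring of 6 different subunits that unwinds the parental strands, and 3 of its 6 genes were called lower while 0 were called higher. All 6 lie in the range of the most counted genes, where 14.2% of genes were called lower, against 6.44% of all tested genes. Mcm2 stood at 1897, 1823 and 1861 normalized counts in sgControl and at 1644, 1621 and 1775 in the libraries labelled sgNSD3. Mcm5 read 1291, 1266 and 1208 against 1106, 1100 and 1196, and Mcm7 read 2322, 2237 and 2227 against 2072, 1949 and 2171. In all 3 genes every library labelled sgNSD3 was below every sgControl library, and replicate 3 was the highest of its condition, closest to the controls. Mcm2 fell by 9.68% (log2 fold -0.15, SE 0.041; limma, Benjamini-Hochberg adjusted p = 0.0143), Mcm5 by 9.66% (-0.15, SE 0.046; adjusted p = 0.0322) and Mcm7 by 8.75% (-0.13, SE 0.04; adjusted p = 0.0251). Without sgNSD3 replicate 1 or replicate 2 none of these 3 calls held (limma, Benjamini-Hochberg adjusted p = 0.0949 and 0.118 for Mcm2, 0.155 and 0.168 for Mcm5, 0.0822 and 0.22 for Mcm7), and Mcm7 and Mcm5 were also not called without sgControl replicate 1 (0.0534 and 0.0742) nor Mcm5 without sgControl replicate 2 (0.0909).

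The other 3 subunits were not called. Mcm4 read 1622, 1715 and 1723 normalized counts in sgControl against 1713, 1708 and 1685, a fold of 1.01 with a 95% interval of 0.955 to 1.07. Mcm6 read 1985, 1976 and 1953 against 1911, 1936 and 2031, a fold of 0.994 (0.942 to 1.05). Conditions overlapped in both genes, and neither interval reaches below 0.942. For Mcm3 the libraries labelled sgNSD3 were all lower, at 1151, 1172 and 1188 against 1230, 1207 and 1232, but the fold of 0.957 (0.901 to 1.02) did not pass the test (limma, Benjamini-Hochberg adjusted p = 0.366). Taken as shares of all MCM2-7 counts, Mcm2 made up 18.3, 17.8 and 18.2% in sgControl and 17.1, 17.1 and 17.7% in those labelled sgNSD3. For Mcm6 this share was 19.2, 19.3 and 19.1% against 19.9, 20.4 and 20.2%. Mcm7 also took a lower share in every library labelled sgNSD3 (21.6, 20.5 and 21.6% against 22.4, 21.9 and 21.8%). The share of Mcm5, though it was called lower, overlapped between the conditions (12.5, 12.4 and 11.8% against 11.5, 11.6 and 11.9%), as did those of Mcm3 and Mcm4. These shares were looked at after the single values were seen, so the difference between subunits was not tested. The 6 genes together summed to 10347, 10224 and 10204 normalized counts in sgControl and to 9598, 9486 and 10046, and replicate 3 of sgNSD3 again lay nearest to the controls.

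**Figure D2:**
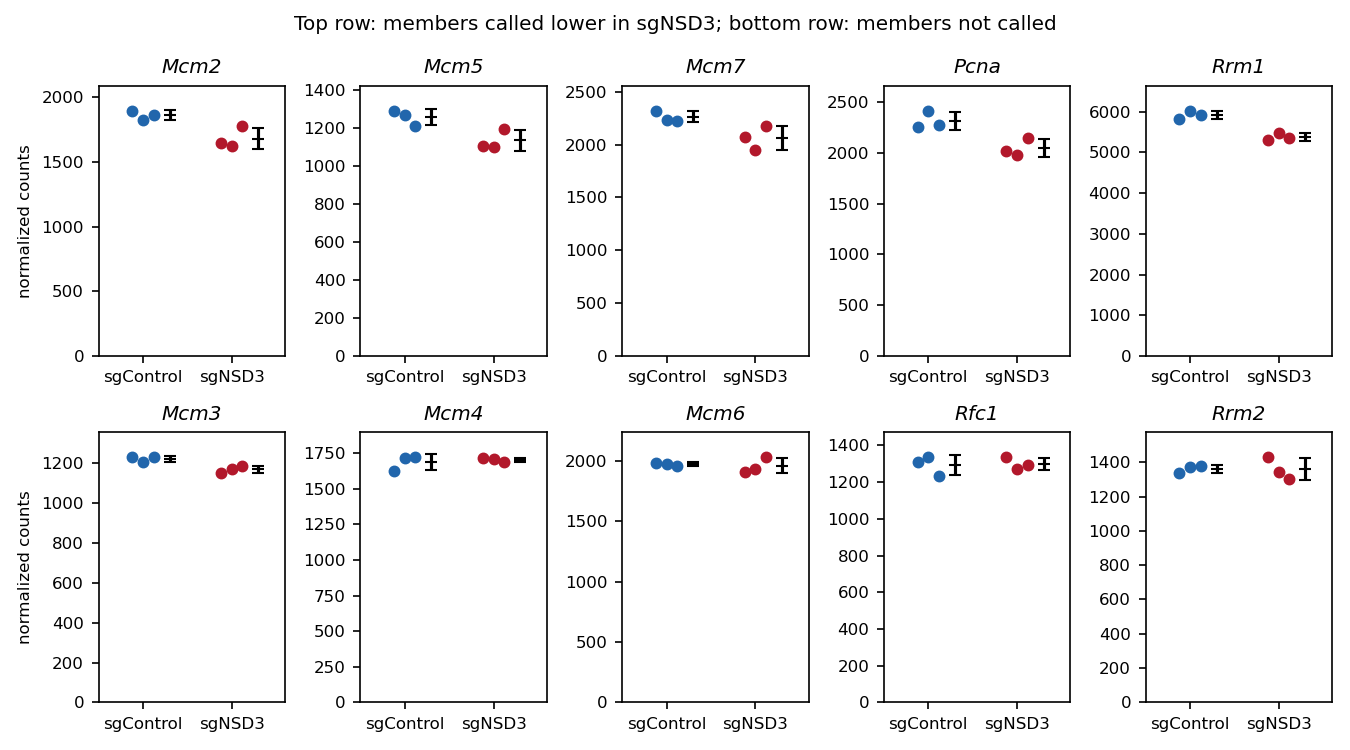
Normalized counts of 10 replication genes in the 6 RNA libraries (y axis from 0; blue, sgControl replicates 1 to 3; red, libraries labelled sgNSD3, replicates 1 to 3; bar, mean ± SD, n = 3). In the top row, the 5 genes called lower, no red point reaches a blue one; of the bottom row, 5 genes that were not called, that holds for Mcm3.

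Ribonucleotide reductase turns ribonucleotides into deoxynucleotides and is built from a large subunit, Rrm1, and a small subunit, Rrm2. Rrm1 stood at 5814, 6029 and 5912 normalized counts in sgControl and at 5293, 5476 and 5360 in the libraries labelled sgNSD3. Its lowest sgControl value was above its highest sgNSD3 value, and the mean fell by 9.15% (5918 ± 107 to 5376 ± 92.4, SD, n = 3; log2 fold -0.14, SE 0.03; limma, Benjamini-Hochberg adjusted p = 0.00205). Rrm2 was flat, at 1336, 1372 and 1378 against 1430, 1345 and 1304 (fold 0.998, 95% interval 0.938 to 1.06). Rrm1 thus took 81.3, 81.5 and 81.1% of the counts of the pair in sgControl and 78.7, 80.3 and 80.4% in the libraries labelled sgNSD3; this share was not tested. The thymidylate enzymes were not called: Tyms, which makes thymidylate from deoxyuridylate, had a fold of 1 (0.928 to 1.09), and Tk1, the salvage thymidine kinase, had a fold of 1.06 (0.997 to 1.13). Tk1 was one of 2 members for which every library labelled sgNSD3 was above every control, at 1059, 1037 and 1069 against 965.2, 980.9 and 1030 (limma, Benjamini-Hochberg adjusted p = 0.222).

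PCNA is the sliding clamp that tethers polymerases to DNA, and RFC is the complex that loads it. Pcna read 2258, 2417 and 2272 normalized counts in sgControl and 2022, 1975 and 2146 in the libraries labelled sgNSD3. No values overlapped, and the mean fell by 11.6% (2316 ± 88 to 2048 ± 88, SD, n = 3; log2 fold -0.18, SE 0.04; limma, Benjamini-Hochberg adjusted p = 0.00265). The 2 pseudogene rows of Pcna stood at means of 9.244 and 0 normalized counts. Of the 5 loader genes, 0 were called. Rfc1, the largest loader subunit, had a fold of 1 (95% interval 0.944 to 1.07), Rfc3 of 1.01 (0.891 to 1.15) and Rfc4 of 1.09 (0.937 to 1.26). Rfc2 was at 0.942 (0.87 to 1.03) and Rfc5 at 0.949 (0.896 to 1.01). For Rfc5 the libraries labelled sgNSD3 sat just below the controls, at 1786, 1778 and 1808 against 1838, 2007 and 1817.

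Pcna and Rrm1 were called under each of the 16 alternative settings and left-out libraries that were run, Mcm2 under 14, Mcm7 under 12 and Mcm5 under 10. The next member by p was Fen1, the flap endonuclease that trims Okazaki fragments. Fen1 read 856.5, 871.8 and 836.3 normalized counts in sgControl and 783.4, 733.5 and 797.7 in the libraries labelled sgNSD3, with no overlap. Its difference of 9.75% just missed the threshold (log2 fold -0.15, SE 0.05; limma, Benjamini-Hochberg adjusted p = 0.0518). The Fen1 gene shares 192 bases with Tmem258, and whether reads were counted by strand is not stated in the sources used here. Lig1, the ligase that seals Okazaki fragments, had a fold of 0.926 (95% interval 0.846 to 1.01).

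Origin licensing genes were not called, 0 of 4 in either direction. Cdc6, the loader of MCM rings, read 253.8, 237.3 and 236.5 normalized counts in sgControl and 234.6, 221.5 and 197.5 in the libraries labelled sgNSD3 (fold 0.898, 95% interval 0.792 to 1.02). Cdt1, its partner in loading, read 777.1, 705.3 and 643.4 against 696.5, 721.1 and 709.7 (fold 1, 0.922 to 1.09). Cdc6 did not overlap between the conditions and Cdt1 did, with the sgControl libraries spreading wider than those labelled sgNSD3. Orc6, a subunit of the origin recognition complex, was at 0.904 (0.823 to 0.991; limma, Benjamini-Hochberg adjusted p = 0.162), again with no overlap, and Orc1, its largest subunit, was at 1 (0.866 to 1.16).

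Helicase activation covered the widest range of folds, and 0 of 6 genes were called. Gins3, a subunit of the GINS complex, read 34.47, 51.67 and 51.76 normalized counts in sgControl and 29.97, 38.35 and 36.17 in the libraries labelled sgNSD3 (fold 0.758, 95% interval 0.576 to 1.03). Gins1, its partner in the same complex, leaned the other way, at 83.56, 111 and 81.19 against 125, 121.8 and 93.85 (fold 1.24, 1.01 to 1.52; limma, Benjamini-Hochberg adjusted p = 0.184). Conditions overlapped in both genes, and neither difference passed the test. The remaining GINS genes lay nearer to 1: Gins2 read 1053, 1130 and 1054 against 1146, 1016 and 1023 (fold 0.984, 0.914 to 1.06), and Gins4 had a fold of 0.957 (0.876 to 1.05). Gins4 lies on chromosome 8, as Nsd3 does, 2.36 Mb from it. Cdc45, the helicase partner of GINS, had a fold of 1.03 (0.934 to 1.14). Mcm10, which helps to start the helicase, read 347.8, 327.3 and 313.6 against 301.8, 268.5 and 311.8 and did not overlap, with a fold of 0.892 (0.799 to 0.995; limma, Benjamini-Hochberg adjusted p = 0.19).

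The polymerases and primase were the role group with the smallest summed difference, and 0 of 6 were called. Their sums were 3195, 3308 and 3240 normalized counts in sgControl and 3133, 3348 and 3302 in the libraries labelled sgNSD3. Prim1, the catalytic primase subunit, read 351, 403.8 and 323.8 against 303.8, 336.6 and 311.8 (fold 0.883, 95% interval 0.791 to 0.992; limma, Benjamini-Hochberg adjusted p = 0.173). Pole, the catalytic subunit of the leading strand polymerase, read 804.3, 841.1 and 845.4 against 813.3, 854.3 and 790.9 (fold 0.987, 0.919 to 1.06). Both genes overlapped between the conditions. Pold1, catalytic subunit of the lagging strand polymerase, leaned up at 1.08 (0.991 to 1.18), as did Pola2, the second subunit of polymerase alpha, at 1.07 (0.98 to 1.18). Pola1, the catalytic subunit of polymerase alpha, and Prim2, the large primase subunit, had folds of 0.998 (0.908 to 1.09) and 0.979 (0.895 to 1.07).

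Single-strand binding and chromatin assembly genes were likewise not called. Rpa1, the largest subunit of the RPA complex that coats single strands, read 2428, 2278 and 2433 normalized counts in sgControl and 2243, 2241 and 2247 in the libraries labelled sgNSD3. Those 3 values were close to each other (SD 3.41) and lay below all controls, with a fold of 0.943 (95% interval 0.895 to 0.994; limma, Benjamini-Hochberg adjusted p = 0.134). Rpa2, its partner subunit, was at 1.04 (0.911 to 1.18). Chaf1b, a subunit of the CAF-1 histone chaperone that deposits H3-H4 behind the fork, read 544.2, 506.2 and 555.2 against 532.2, 467.9 and 480 (fold 0.922, 0.842 to 1.01), and Chaf1a, the large subunit, had a fold of 0.974 (0.915 to 1.04). Uhrf1, which brings the maintenance DNA methyltransferase to new strands, read 1413, 1483 and 1420 against 1379, 1350 and 1384 (fold 0.953, 0.899 to 1.01). Chaf1b overlapped between the conditions and Uhrf1 did not.

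All 5 calls fell among the members with the most counts. When the tested genes were cut into 10 bins of equal size by mean count, the highest 2 bins held 14 members, 5 of them called lower, and 14.2% of the 3653 genes there were called lower. The other 8 bins held 25 members, 0 of them called, and 4.49% of genes called lower. In simulated counts for 18263 genes, 3 against 3 libraries, the test recovered 26.7% of 60 genes changed 1.1-fold, 75% of 72 changed 1.25-fold and 91.2% of 68 changed 1.5-fold, with 5 false calls. Every simulated gene was given the same small spread between replicates beyond counting, a dispersion of 7.68e-05. Genes that spread more were not simulated, so recovery and false calls in the real libraries can be worse. Only the genes changed 1.1-, 1.25- or 1.5-fold differed in the simulation, against 2170 genes called in the real libraries. The adjustment depends on how many genes differ, so recovery in the real libraries can differ for this reason too. Recovery at the members' own counts was not simulated apart. Counts rise with transcript length as well as with RNA level, so they do not rank the members by abundance. The spread between replicates also differed: the members' variance over the variance of counting alone had a median of 1.05 in sgControl and 1.52 in the libraries labelled sgNSD3, where 0.693 is the median that counting alone gives, and over tested genes with a mean of at least 32 counts it was 1.35 and 0.867. Replicate 3 of sgNSD3 was the highest of its condition for 18 of the 39 members.

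The stretches upstream of the called genes Mcm2, Mcm5, Pcna and Rrm1 are shown with those of 2 uncalled partners in the same complexes, Mcm6 and Rrm2. Whether promoters have a part in the RNA differences was not tested. They come from RefSeq promoters of the GRCm38.p6 assembly, run 5′ to 3′ on the gene's strand, and hold only bases outside annotated protein-coding genes. Capitals mark an 8-letter E2F word (TTTCCCGC, TTTGGCGC, TTTCGCGC or TTTGCCGC, on either strand) or CCAAT, the core of the NF-Y box (on either strand, where it reads ATTGG); neighbouring words can overlap and then form 1 longer run.
Mcm2 (chr6:88898781-88898980, minus strand): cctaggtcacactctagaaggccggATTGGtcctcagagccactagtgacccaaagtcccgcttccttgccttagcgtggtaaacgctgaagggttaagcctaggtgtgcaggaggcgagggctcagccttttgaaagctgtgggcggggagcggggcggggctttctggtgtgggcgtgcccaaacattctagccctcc
Mcm5 (chr8:75109309-75109467, plus strand): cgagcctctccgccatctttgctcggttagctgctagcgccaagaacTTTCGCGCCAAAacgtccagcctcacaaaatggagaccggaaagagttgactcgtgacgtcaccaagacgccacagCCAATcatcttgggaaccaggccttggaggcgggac
Mcm6 (chr1:128359706-128359905, minus strand): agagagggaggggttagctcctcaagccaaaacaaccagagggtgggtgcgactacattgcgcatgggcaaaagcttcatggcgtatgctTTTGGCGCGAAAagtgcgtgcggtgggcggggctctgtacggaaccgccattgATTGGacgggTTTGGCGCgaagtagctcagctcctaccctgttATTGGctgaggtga
Pcna (chr2:132253181-132253337, minus strand): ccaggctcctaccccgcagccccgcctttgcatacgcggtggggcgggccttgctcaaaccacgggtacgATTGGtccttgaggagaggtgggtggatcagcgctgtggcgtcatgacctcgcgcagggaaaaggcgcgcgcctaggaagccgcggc
Rrm1 (chr7:102441495-102441694, plus strand): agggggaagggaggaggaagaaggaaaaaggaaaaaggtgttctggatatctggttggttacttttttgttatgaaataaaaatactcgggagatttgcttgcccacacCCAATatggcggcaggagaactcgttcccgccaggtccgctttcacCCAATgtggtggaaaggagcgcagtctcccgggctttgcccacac
Rrm2 (chr12:24708054-24708253, plus strand): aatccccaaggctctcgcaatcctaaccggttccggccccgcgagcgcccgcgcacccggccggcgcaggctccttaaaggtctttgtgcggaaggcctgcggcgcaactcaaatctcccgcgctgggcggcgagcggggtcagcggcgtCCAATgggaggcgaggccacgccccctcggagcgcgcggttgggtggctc

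In the stretches shown, Mcm6, which was not called, carries 3 E2F words, Mcm5, which was called, carries 2, and the other 4 carry 0. Each of the 6 holds CCAAT on one strand or the other. RefSeq promoters of 300 bases, from 250 before to 50 after the start, were matched for 32 of the 39 members. An E2F word occurred in 13 of the 32 (40.6%): Orc1, Cdc6, Cdt1, Mcm3, Mcm5, Mcm6, Mcm7, Gins3, Pola1, Pold1, Rfc3, Lig1 and Uhrf1. Of all 32851 promoters 2.26% held one, and of 27025 genes 2.6% had such a promoter. Among the matched members, 2 of the 5 called lower and 11 of the 27 not called held an E2F word. CCAAT occurred in 21 of the 32 members (65.6%) and in 37.4% of all promoters (41.1% of genes), in all 5 of the members called lower and in 16 of the 27 not called. The cell cycle homology words TTTGAA and TTCGAA, searched on both strands, occurred in 6 of the 32 (18.8%) and in 19.2% of all promoters (21.7% of genes). Genes with several promoters count once if any holds the word. A match of letters is a description of the sequence only.

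Neighbouring gene lists were read with the same fit, in which 6.44% of all tested genes were called lower and 5.44% higher. Of 35 other replication factors, 0 were called lower and 1 higher: Orc4, an origin recognition subunit, at 644.5, 681.3 and 771.3 normalized counts in sgControl and 775.1, 834.2 and 777.2 in the libraries labelled sgNSD3 (fold 1.14; limma, Benjamini-Hochberg adjusted p = 0.036; median log2 fold of the list -0.021). This call was lost without any 1 of 5 of the 6 libraries, among them all 3 labelled sgNSD3. Of 14 other nucleotide supply genes, 2 were called lower and 0 higher (median -0.013). Umps, which makes uridine monophosphate, fell by 12% (1143 ± 44.6 to 1006 ± 10.3 normalized counts, SD, n = 3; adjusted p = 0.00642), and Dtymk, the thymidylate kinase, fell by 11.5% (932.9 ± 24.3 to 825.5 ± 13.3; adjusted p = 0.0127). Dtymk was not called without sgControl replicate 2 or sgNSD3 replicate 1. Of 9 other genes of chromatin replication 0 were called in either direction (median -0.014).

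The transcriptional regulators of S phase and the mitotic genes were read against the same background of 6.44% lower and 5.44% higher. Of 13 E2F and pocket protein genes, 1 was lower and 0 were higher (median log2 fold 0.002): E2f4, a mostly repressive E2F, fell by 10.2%, with a limma Benjamini-Hochberg adjusted p of 0.0498 that rose above the threshold under most of the alternatives. E2f1, an activating E2F, had a fold of 1.04 (limma, Benjamini-Hochberg adjusted p = 0.613). Of 7 S phase cyclin and kinase genes, 1 was lower and 0 were higher (median -0.098): Cdc25a, the phosphatase that activates CDK2, which read 814.8, 817.2 and 802.8 normalized counts in sgControl and 737.9, 683.7 and 718.5 in the libraries labelled sgNSD3 (limma, Benjamini-Hochberg adjusted p = 0.0136). Without sgNSD3 replicate 2 Cdc25a was not called. Among 26 genes of G2 and mitosis, 4 were lower and 0 higher (15.4% lower, median -0.064). Their mean normalized counts ran from 249.7 to 4400. In the bins of mean count that cover this range, between 5.26 and 17.9% of all tested genes were called lower. The kinase Aurka and the spindle checkpoint gene Mad2l1 each fell by 13.8% (limma, Benjamini-Hochberg adjusted p = 0.00452 and 0.00541) and were called under every alternative. Birc5, the survivin gene, and Tpx2, an activator of Aurora A, fell by 13.4 and 8.49% and were not called without sgControl replicate 1 or any single library labelled sgNSD3, nor Tpx2 without sgControl replicate 2. The proliferation marker Mki67 had a fold of 0.984 (limma, Benjamini-Hochberg adjusted p = 0.72).

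The list named replication-dependent histones, most of them transcribed in S phase, had the most calls. It took every symbol starting with Hist1h, Hist2h, Hist3h or Hist4h, whether or not each gene is replication-dependent. The pseudogene row Hist3h2bb-ps is among them and was not tested. Of 70 listed, 59 were tested, and 17 were called lower and 0 higher (28.8% lower, against 6.44% of all tested genes; median log2 fold -0.19). The 70 genes summed to 14702, 13129 and 12573 normalized counts in sgControl and to 11804, 11680 and 11753 in the libraries labelled sgNSD3, 12.8% lower. Replicate 1 of sgControl was the highest and was also the library with the largest ribosomal RNA share, 10.85%; the part of that share in the histone values was not tested. Without it 9 histone genes were called lower, as without sgNSD3 replicate 2. Hist1h2ab fell by 37% (242.2 ± 24.7 to 152.6 ± 16.1 normalized counts, SD, n = 3; limma, Benjamini-Hochberg adjusted p = 5.72e-05), Hist1h2aj by 36.7% and Hist4h4 by 27%, and these 3 were called under every alternative. Hist2h2ab, Hist1h2ap and Hist1h2ah, each with few counts, fell by 58.4, 40.2 and 37.7% and lost their calls when single libraries were left out. Histone genes have near-identical copies between which the authors' counting could split reads, so single values are uncertain.

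**Figure D3:**
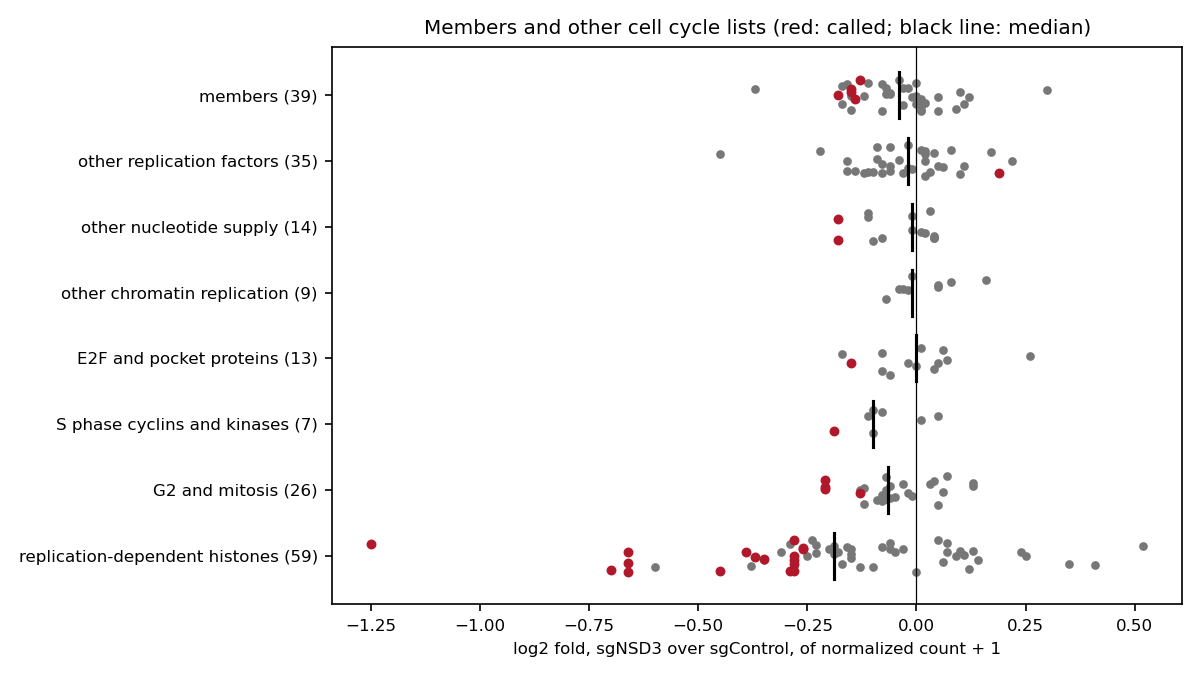
Fitted log2 folds (x axis: libraries labelled sgNSD3 over sgControl, on log2 of normalized count + 1; each point 1 tested gene) of the 39 replication genes and of 7 other cell cycle lists, with the number tested in brackets, called genes in red and the median as a black line. The histone list has the lowest median, -0.19, and 17 red points, all left of 0; the only red point right of 0 is Orc4.

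Gene bodies of the 39 members were read in the chromatin scores of the authors' deposited table, which gives 1 signed score per gene body in 1 column for H3K27me3 and 2 for H3K36me2. The header of the authors' deposited table names no library and no order of comparison, so a sign is no direction between the conditions, and nothing was tested. H3K36me2 is a mark of active and intergenic chromatin that NSD enzymes lay down, and H3K27me3 is the Polycomb mark of silent genes. In the authors' deposited table, 37 of 39 members scored above 0 in the first H3K36me2 column (median 0.0765, against 0.0757 for all 22470 gene bodies) and 39 of 39 in the second (median 0.134 against 0.125). All gene bodies of the authors' deposited table scored above 0 in 89.4 and 92.4% of cases. By the mean of both H3K36me2 columns, 51.3% of the members were above the median of all gene bodies in the authors' deposited table, and 43.6% were above the median of the bodies of genes tested in RNA. The members' median of that mean was 0.106, against 0.1 for all bodies and 0.11 for those of tested genes in the authors' deposited table.

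The highest mean H3K36me2 scores of members in the authors' deposited table belonged to Cdt1 (0.243), Cdc45 (0.242) and Tk1 (0.225), and the lowest to Pold1 (0.0254), Mcm10 (0.0359) and Rrm2 (0.0423). The columns of the authors' deposited table often differed for one gene: Tk1 scored 0.0415 in the first and 0.408 in the second, Pole 0.154 and 0.0769. Of the members called lower in RNA, Mcm2 scored -0.0122 and 0.133, Mcm5 0.0392 and 0.067, and Mcm7 0.0146 and 0.136 in the authors' deposited table. Pcna scored 0.103 and 0.0523 there, and Rrm1 0.00163 and 0.113, so the mean scores of all 5 in the authors' deposited table lay below the median of 0.1 over all gene bodies. Of the 34 members not called, 14 lay below that median in the authors' deposited table as well, Mcm6 (0.0568) and Rrm2 among them. Neither single column of the authors' deposited table put all 5 called members below its median. Pcna lay above that of the first (0.0757), and Mcm2 and Mcm7 above that of the second (0.125). A link between these scores and the RNA calls was not tested.

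For H3K27me3, 2 of 39 members scored above 0 in the authors' deposited table, Pole (0.223) and Rfc2 (0.0348). In the same column 31.5% of all gene bodies and 18.1% of the bodies of genes tested in RNA scored above 0 in the authors' deposited table. The members' median H3K27me3 score there was -0.0467, against -0.0258 for all bodies and -0.0357 for those of tested genes in the authors' deposited table. The lowest members in the authors' deposited table were Gins1 (-0.149) and Pold1 (-0.102). Exact ties were common in the authors' deposited table: the H3K27me3 value of Chaf1a is carried by 318 gene bodies and that of Mcm2 by 222. The 39 members held 38 distinct H3K27me3 values there. How small a difference between members can be read was not tested.

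**Figure D4:**
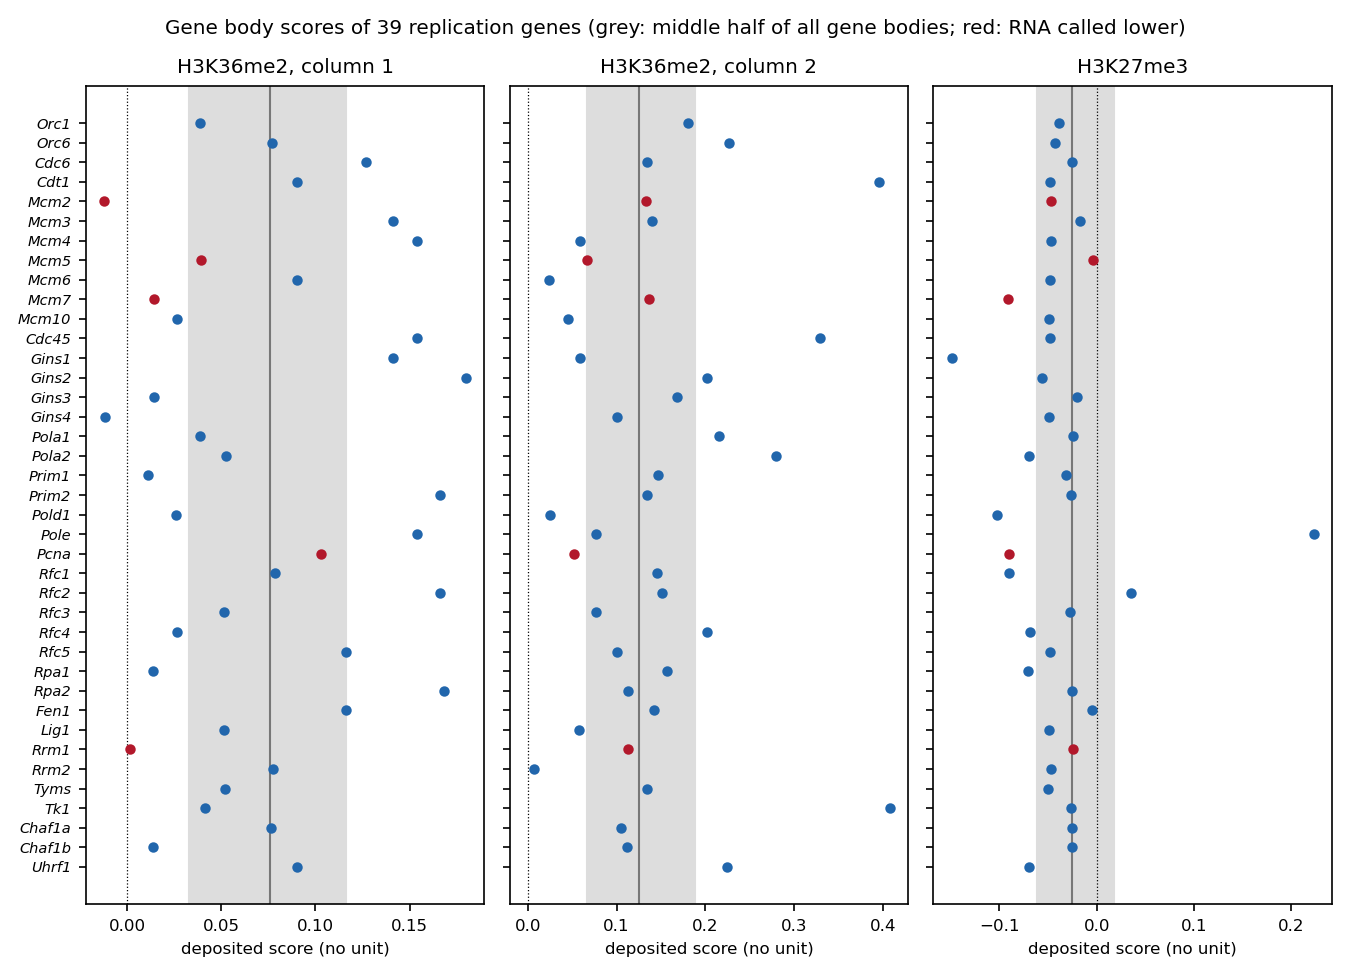
Scores of the gene bodies of the 39 replication genes in the 3 columns of the authors' deposited table (x axes: deposited score, no unit, a different range in each panel; dotted line, 0; grey band and line, quartiles and median of all 22470 bodies; red, members called lower in RNA). Members spread across and beyond the grey band for H3K36me2, and for H3K27me3 Pole at 0.223 stands apart from the others, which lie at or below 0.0348.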

How the data were processed

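Alignment and counting tools named in the submitters' processing notes are HISAT2 and featureCounts, with DESeq2 and mm10; their versions, settings and use of strand are not stated in the sources used here. The RNA values were deposited by the authors on a log2 scale, the variance-stabilised scale of DESeq2, on which a gene without reads sits at 8.45. When that transform was inverted, 100% of 159817 values above 0 were whole multiples of 1 step per library, within 0.05. These counts divided by the authors' size factors are the normalized counts. The chromatin values are a signed score per gene body, deposited by the authors, made in a way not stated in the sources used here. No value of an IgG library was used; 1 of the IgG samples has a title and a source label that name different guides. There were 0 other value columns.

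The test of RNA was limma's (version 3.58.1, under R 4.3.3; lmFit, then eBayes with a trend) on the deposited log2 values of 18263 of 55433 genes with a mean of at least 8 normalized counts, with Benjamini-Hochberg adjustment at 0.05. Folds and percentages are ratios of mean normalized counts. Log2 folds, standard errors and 95% intervals were fitted by limma to log2(normalized count + 1), a scale that slightly compresses changes of low genes. The deposited scale, which gave the p-values and has its floor at 8.45, compresses them more. The test was tested on simulated counts. Replicates are numbered by sample titles; sgNSD3 RNA titles 1, 2 and 3 belong to deposited columns 3, 1 and 2. Alternatives were other pseudocounts (1 and 8), voom, no filter and a mean of 32, quantile and other scaling, no trend, replicate blocks and each library left out.

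The members and lists were chosen with earlier results of these data known, so lists get counts and medians and no test. Every member is named; values in every library are given for called members and, in each role group, for those with the largest log2 fold and the highest mean, and for some others of the same complex, chosen after values were seen. Of other lists, up to 6 called genes with the largest log2 fold are named; E2f1 and Mki67 were added. The marker lists were leukocytes, endothelium, epithelium and mesenchyme. Positions and promoters come from RefSeq for GRCm38.p6; 7 members had no promoter entry (Mcm4, Gins1, Gins2, Gins4, Prim2, Pole and Rfc2). The Mcm7 window lies within another transcript's gene span and is not shown. Of the members, 10 overlap another protein-coding gene in position (Mcm7 and Ap4m1 share 91 bases, and Mcm7 hosts Mir25, Mir93 and Mir106b), so reads there can be shared.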

Additional observations from a re-analysis of the deposited data

How the results depend on the processing

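The number of members called lower was 5 and became 3 with quantile normalization; leaving out single libraries gave between 2 and 5, with 3 without sgControl replicate 1 and 2 without sgNSD3 replicate 1 or 2. The number called higher was 0 throughout. The members' median log2 fold of -0.039 became -0.030 with quantile normalization and -0.030 relative to the median of genes in the same bin of mean count, and lay between -0.056 and -0.041 with a library left out. Among the single members, Mcm5 was not called with no filter (log2 fold -0.15, limma Benjamini-Hochberg adjusted p = 0.0538) or with quantile normalization (-0.13, 0.0705), nor Mcm7 with quantile normalization (-0.12, 0.0647). Genes called lower in the 5 lists of other replication, nucleotide, chromatin, E2F and cyclin genes numbered 4 (2 to 5 with a library left out), and those called higher 1 (0 with no filter, 0 to 1 with a library left out). In the G2 and mitosis list 4 were lower (2 to 4) and among histones 17 (9 to 21). The cause of these shifts was not tested. Over the whole table the genes called lower numbered 1176, and 709, 728 and 773 without sgNSD3 replicate 1, 2 or 3, where 2, 2 and 5 members were called; without sgControl replicate 1 they numbered 1166, with 3 members called. The share of members above the median H3K36me2 score in the authors' deposited table was 51.3% against all gene bodies and 43.6% against those of tested genes. Log2 folds were followed only for the 5 members called lower and for the members' median, and none of these changed sign. Of the summary values, 125 stayed within 1.5 times the main count or within the replicate spread and 24 did not. Those that stayed include counts called higher that were 0 throughout. Of the single genes' values 68 kept their call and 12 lost it.

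Whether replicate numbers pair the samples cannot be settled with 3 libraries per condition. Deviations of same-numbered samples correlated at 0.0541, 0.024 and -0.0151 by title and at -0.084, -0.0148 and -0.0497 by column number. With the replicate block by title numbers 6 members were called lower, Fen1 (limma, Benjamini-Hochberg adjusted p = 0.0464 to 0.0828 over the settings other than left-out libraries) being added, and 1333 genes were lower and 1119 higher over the table; with the block by column numbers the members were 5 and the table's counts 1086 and 919, against 1176 and 994 without a block. Depth limits the members with few counts most: the 95% interval of Gins3, with a mean of 40.4 normalized counts, runs from 0.576 to 1.03.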
